A study of Mus musculus with 9 samples.

Results

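The genes described here are 52 genes that act when a cell divides its chromosomes: the spindle checkpoint, the mitotic kinases, the kinetochore and centromere, condensin, the anaphase trigger, the spindle and the machinery of cytokinesis. They were chosen by name, with earlier results of these data known, and all 52 were found once each among the 32137 genes counted. All 52 also passed the filter on low counts that left 17011 genes for testing. RNA sequencing was done on 9 libraries of sorted cells from differentiated bile duct organoids, 3-dimensional cultures grown from the ducts of mouse liver.

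Every library came from organoids of 1 male mouse of mixed genetic background with the genotype Axin2CreERT2+/-; R26-LSL-tdTom+/-. In this genotype a tamoxifen-dependent Cre recombinase is made from the Axin2 gene, a target of Wnt signalling, and Cre switches on the red fluorescent reporter tdTomato. After an expansion phase of 2 to 4 days the organoids were differentiated for 11 days, and in the last 24 h all of them received 3 uM dexamethasone and 500 nM 4-hydroxytamoxifen (4-OHT). Rspo1 (R-spondin 1), a secreted protein that strengthens Wnt signalling, was added at 100 ng/ml in those hours or left out. Untreated cells were tdTomato-negative cells from organoids without Rspo1, Rspo1-negative cells were tdTomato-negative cells from organoids with Rspo1, and Rspo1-positive cells were tdTomato-positive cells from organoids with Rspo1. A group of tdTomato-positive cells without Rspo1 was not analysed here. Each group had 3 libraries, one each from organoid passages 5, 6 and 10, and values for 3 libraries are given in that order throughout. Since all come from 1 animal, the spread between libraries is that of passages of the culture and not of animals. Rspo1-positive cells differed from untreated cells in Rspo1 as well as in the sorted reporter state, and these cannot be told apart in that comparison.

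Total counts per library ran from 23423979 to 37351448, and 22021 to 24578 genes had a count. Mitochondrial genes took 1.73 to 2.89% of the counts in untreated cells, 1.14 to 1.52% in Rspo1-negative cells and 1.3 to 1.63% in Rspo1-positive cells, highest in untreated cells at each passage, and the part of this in the results was not tested. The biliary markers Krt19, Krt7, Krt8, Krt18, Epcam, Sox9, Spp1, Cdh1 and Cftr were all detected. Of 10 mesenchymal markers 8 were examined, with a summed level of 0.435 to 1.89 CPM (the standard unit of counts relative to library size, here with library sizes scaled by TMM) and 3 to 5 of them at 0 in a library. Of 6 endothelial markers 4 were examined, at 0.0739 to 0.339 CPM in sum. The 7 immune markers examined of 8 summed to 53.6 to 76.7 CPM and the 10 hepatocyte markers to 327 to 724 CPM, both without a higher range in Rspo1-positive cells. Their part in the results was not tested.

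At mitosis, condensin rings and topoisomerase compact and untangle the chromosomes, and the centromere protein CENP-A marks the place where a kinetochore is built on each chromatid. Kinetochores bind the spindle, and until every one of them is attached the spindle checkpoint holds back the anaphase-promoting complex, a ubiquitin ligase. Its activation by Cdc20 destroys securin and cyclin B, separase then opens cohesin, and the contractile ring finishes the division. Many of these genes are transcribed late in the cell cycle through the cell cycle homology region (CHR), an element near the start site that the MuvB complex binds, together with CCAAT boxes bound by NF-Y. The adult bile duct epithelium divides rarely, and Wnt signalling supports its growth in organoid culture.

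RefSeq promoters (build GRCm38.p6, 250 bases before to 50 bases after a start site) were at hand for 46 of the 52 genes, as 52 promoters, beside 32851 promoters of all genes. The CHR (TTTGAA, either strand) stood in 65.4% of the mitosis promoters and in 17.9% of all promoters, and within 50 bases of the start the shares were 53.8% and 4.94%. The CCAAT box (CCAAT, either strand) stood in 69.2% against 37.4%, and both motifs together in 51.9% against 6.95%. None of these motifs contains another, though neighbouring matches can overlap at their ends. The CHR variant TTTAAA was found in 17.3% against 13.2%, and the E2F site GGCGGGAA in 7.69% against 2.19%. In the 250 bases before the start alone, the CHR shares were 38.5% and 16.0%. These matches are letters in a window and were not tested as binding sites.

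The following windows of 120 bases run from 100 before to 20 after the start. They show these elements in promoters of some rising genes, each of which holds both motifs. The others are promoters of the 3 genes that did not rise in Rspo1-positive over untreated cells. Capitals mark the CHR and the CCAAT box on either strand. The windows are Cdc20 at chr4:118437324-118437443 (minus strand), Espl1 at chr15:102296193-102296312 (plus strand), Ube2c at chr2:164769829-164769948 (plus strand), Top2a at chr11:99024170-99024289 (minus strand), Racgap1 at chr15:99651637-99651756 (minus strand), Ttk at chr9:83834589-83834708 (plus strand), Bub3 at chr7:131560270-131560389 (plus strand), Pttg1 at chr11:43425962-43426081 (minus strand) and Ncaph2 at chr15:89355619-89355738 (plus strand).
Cdc20: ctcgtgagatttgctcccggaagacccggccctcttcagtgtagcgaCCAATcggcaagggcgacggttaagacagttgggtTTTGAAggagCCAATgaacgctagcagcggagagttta
Espl1: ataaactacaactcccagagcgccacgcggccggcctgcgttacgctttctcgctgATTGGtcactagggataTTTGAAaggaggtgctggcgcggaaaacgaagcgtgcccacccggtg
Ube2c: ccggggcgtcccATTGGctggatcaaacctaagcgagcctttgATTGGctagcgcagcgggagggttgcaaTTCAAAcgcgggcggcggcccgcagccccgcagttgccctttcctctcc
Top2a: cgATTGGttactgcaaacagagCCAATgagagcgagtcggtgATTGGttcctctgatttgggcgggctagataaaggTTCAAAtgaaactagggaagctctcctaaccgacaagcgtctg
Racgap1: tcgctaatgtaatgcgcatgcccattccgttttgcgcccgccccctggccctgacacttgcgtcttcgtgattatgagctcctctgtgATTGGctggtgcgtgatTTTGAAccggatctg
Ttk: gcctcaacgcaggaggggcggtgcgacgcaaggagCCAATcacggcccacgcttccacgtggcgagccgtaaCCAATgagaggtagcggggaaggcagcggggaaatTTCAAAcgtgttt
Bub3: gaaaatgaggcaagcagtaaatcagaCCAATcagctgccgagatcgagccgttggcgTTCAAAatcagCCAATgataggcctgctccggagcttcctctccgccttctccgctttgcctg
Pttg1: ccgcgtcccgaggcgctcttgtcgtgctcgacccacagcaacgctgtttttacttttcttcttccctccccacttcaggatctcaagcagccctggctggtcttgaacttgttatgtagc
Ncaph2: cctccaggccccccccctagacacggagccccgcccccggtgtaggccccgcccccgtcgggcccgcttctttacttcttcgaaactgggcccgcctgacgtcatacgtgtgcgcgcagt
In the Cdc20, Espl1, Ube2c and Top2a windows the CHR began at -18, -27, -29 and -23, with a CCAAT box upstream of it in each. In the Racgap1 and Ttk windows it began at 6 and 8, after the start. Pttg1 and Ncaph2 held neither motif in these windows or in their full promoters, whereas Bub3 held a CHR at -43 between CCAAT boxes at -74 and -32. Other genes with large rises lacked a motif in their full promoters. Birc5 held neither motif, Bub1 held no CHR, and Iqgap3 held no CCAAT box.

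**Figure D1:**
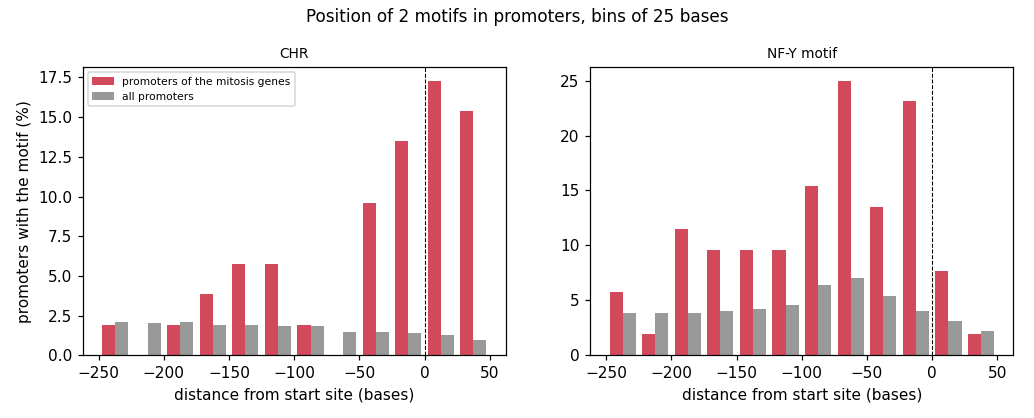
Share of promoters (%) with a CHR (left) or with the CCAAT box that NF-Y binds (right) in each bin of 25 bases, against the distance from the start site in bases. Red bars are the 52 promoters of the mitosis genes and grey bars all 32851 promoters; for the CHR the red bars reach 17.3% in the first bin after the start, where the grey bar is at 1.31%.

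The mitosis genes were far higher in Rspo1-positive cells than in untreated cells. Their summed level was 517, 740 and 531 CPM in the 3 untreated libraries, 884, 1053 and 1068 CPM in the Rspo1-negative libraries, and 1607, 2626 and 2008 CPM in the Rspo1-positive libraries. The 3 groups did not overlap, and Rspo1-positive libraries were highest at each passage. Reads of these genes made up 0.0544 to 0.0675% of all counts in untreated cells and 0.184 to 0.245% in Rspo1-positive cells. In bulk libraries, more dividing cells and more of this RNA per dividing cell cannot be told apart.

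Between Rspo1-positive and untreated cells, 49 of the 52 genes rose and 0 fell in edgeR's quasi-likelihood test with passage as a block (adjusted p under 0.05). Of all 17011 genes tested, 6.44% rose and 6.77% fell. Because the 52 were chosen with earlier results of these data known, the shares of all genes given beside their counts are a description. The median log2 fold change of the 52 was 2.64, a 6.24-fold difference, with a range from -0.12 to 3.83, beside a median of -0.002 over all genes. The 3 passages gave medians of 2.74, 2.38 and 2.84. For 50 genes the lowest Rspo1-positive library lay above the highest untreated one, which holds for 11.4% of all genes. In 50 the Rspo1-positive library was higher at all 3 passages, against 23.4% of all genes. The genes that did not pass were Bub3, Ncaph2 and Pttg1.

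Between the cells sorted from the same treated organoids, Rspo1-positive against Rspo1-negative, 48 of the 52 genes rose and 2 fell, where 21.5% of all genes rose and 17.4% fell. The median log2 fold change was 1.40, or 2.65-fold, and the passages gave 1.45, 1.75 and 1.20. The groups did not overlap upward for 46 genes (24.6% of all genes), and 49 were higher at all 3 passages (36.3% of all genes). Pttg1 and Ncaph2 fell, and Bub3 and Cenpm did not pass. Without passage in the fit, 36 of the 48 upward calls remained, where 14.6% of all genes rose.

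Rspo1-negative cells in turn stood above untreated cells in 35 of the 52 genes and below them in 2, Smc4 and Gas2l3. Of all genes, 15.5% rose and 20% fell in this comparison. The median log2 fold change was 0.92, or 1.88-fold, and it was 1.03, 0.42 and 1.36 at the 3 passages. There were 21 genes with no overlap upward between these groups (16.4% of all genes), and 37 were higher at all 3 passages (28.1% of all genes). Without passage in the fit, 19 of the 35 calls remained, where 8% of all genes rose. The 3 comparisons share libraries, so their fold changes for 1 gene are not independent.

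**Figure D2:**
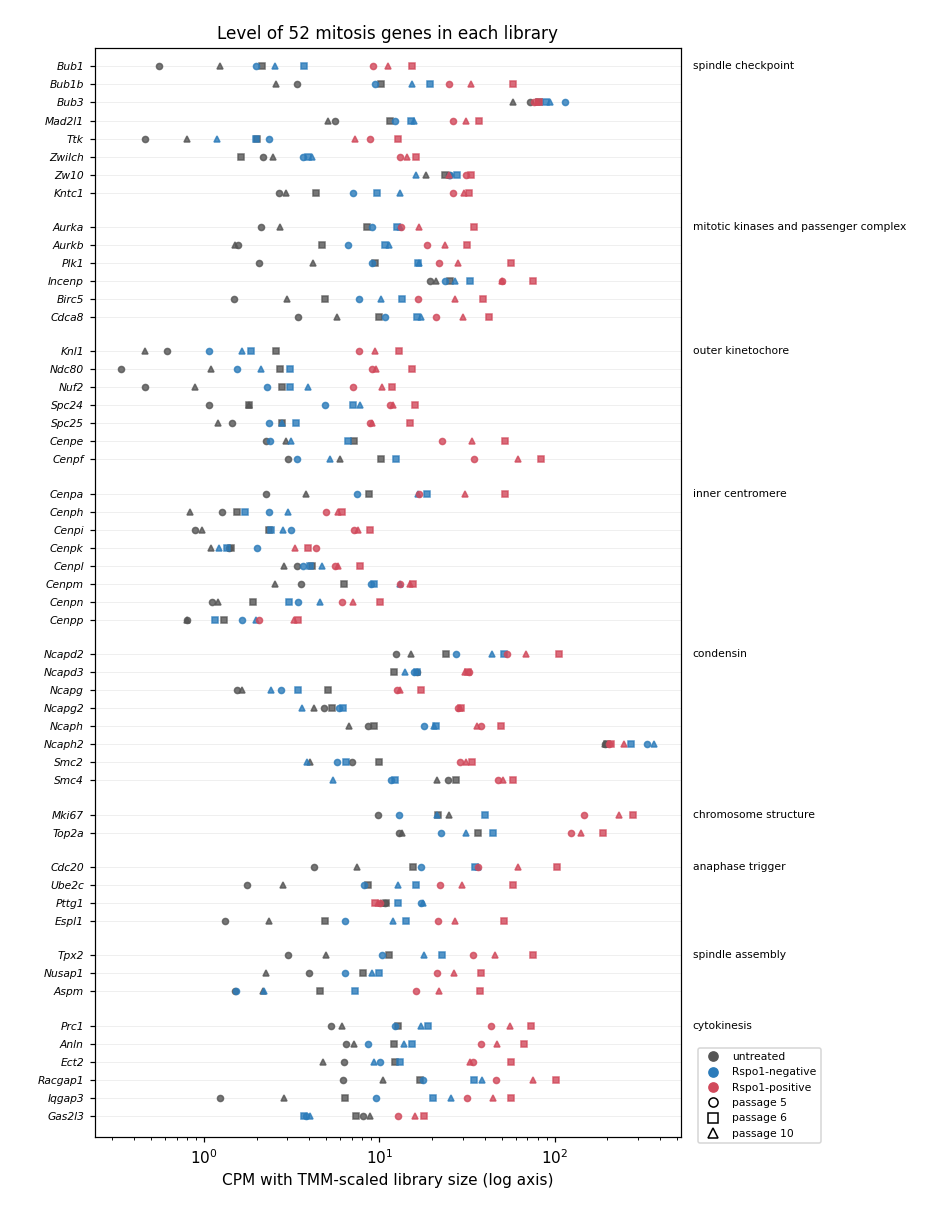
Level of each of the 52 genes in each of the 9 libraries, as CPM on a log axis; grey, blue and red are untreated, Rspo1-negative and Rspo1-positive cells, and circles, squares and triangles are passages 5, 6 and 10. The red symbols lie to the right of the grey ones in 50 rows, and Bub3 and Pttg1 are the rows without that gap.

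The mitotic markers Mki67 and Top2a showed the contrast most plainly by level. Mki67 (chr7:135689784-135716361), which encodes the Ki-67 coat protein of mitotic chromosomes, stood at 9.79, 21.5 and 25.04 CPM in untreated cells, 13.01, 39.8 and 21.3 CPM in Rspo1-negative cells and 147, 279.7 and 232 CPM in Rspo1-positive cells. All 3 Rspo1-positive libraries lay far above the other 6, while untreated and Rspo1-negative cells overlapped. The log2 fold change was 3.59 ± 0.2 (SE, adjusted p = 3.6e-06) over untreated and 3.23 ± 0.2 (SE, adjusted p = 2.85e-05) over Rspo1-negative cells, and 0.36 ± 0.19 (SE, adjusted p = 0.168) between the latter groups. Top2a, the topoisomerase that untangles sister chromatids, stood at 12.96, 36.8 and 13.6 CPM in untreated cells, 22.6, 44.4 and 31.4 CPM in Rspo1-negative cells and 124, 188 and 141 CPM in Rspo1-positive cells. Here too the Rspo1-positive libraries lay apart from all others. Top2a rose by 2.98 ± 0.2 (SE, adjusted p = 5.82e-06) over untreated cells and by 2.25 ± 0.19 (SE, adjusted p = 9.19e-05) over Rspo1-negative cells. Its step from untreated to Rspo1-negative cells was 0.73 ± 0.19 (SE, adjusted p = 0.0118), a call lost in 6 of 16 other fits.

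Of the 8 spindle checkpoint genes, 7 rose in Rspo1-positive over untreated cells, 7 over Rspo1-negative cells, and 6 from untreated to Rspo1-negative cells. Bub1, a kinase that recruits the checkpoint to unattached kinetochores, was found at 0.554, 2.14 and 1.24 CPM in untreated cells, 1.996, 3.74 and 2.54 CPM in Rspo1-negative cells and 9.16, 15.3 and 11.3 CPM in Rspo1-positive cells. All 3 Rspo1-positive libraries exceeded the other 6, and the log2 fold change over untreated cells was 3.27 ± 0.24 (SE, adjusted p = 8.06e-06). For Ttk, the Mps1 kinase that starts the checkpoint signal, the levels were 0.462, 2.01 and 0.806 CPM in untreated cells, 2.34, 1.98 and 1.19 CPM in Rspo1-negative cells and 8.91, 12.7 and 7.28 CPM in Rspo1-positive cells. Its untreated and Rspo1-negative libraries overlapped (0.87 ± 0.36, SE, adjusted p = 0.0834), and Rspo1-positive cells were higher than both (3.21 ± 0.34, SE, adjusted p = 9.44e-05 over untreated). Bub1b, Mad2l1, Zwilch and Kntc1, which make BubR1, Mad2 and 2 subunits of the complex that brings dynein to kinetochores, rose by 2.95, 2.15, 2.79 and 3.18 on the log2 scale over untreated cells.

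Bub3 (chr7:131560222-131571895) and Zw10, both with roles outside mitosis as well, behaved differently. Bub3, which docks Bub1 and BubR1 on the kinetochore, stood at 72.8, 81.7 and 57.6 CPM in untreated cells, 114, 89 and 94.5 CPM in Rspo1-negative cells and 76.3, 81.6 and 79.2 CPM in Rspo1-positive cells. Untreated and Rspo1-positive libraries overlapped at these high levels, and the Rspo1-negative libraries were the 3 highest. The log2 fold change of Rspo1-positive cells was 0.17 ± 0.14 (SE, adjusted p = 0.496) against untreated cells, and relative to Rspo1-negative cells it was -0.32 ± 0.14 (SE, adjusted p = 0.0869). Bub3 rose from untreated to Rspo1-negative cells (0.5 ± 0.14, SE, adjusted p = 0.0181), a call lost in 6 of 16 other fits. Zw10, a partner of Zwilch and Kntc1 that also serves in membrane traffic, was at 24.9, 23.6 and 18.4 CPM in untreated cells, 25.3, 27.6 and 16.3 CPM in Rspo1-negative cells and 31.3, 33.5 and 24.96 CPM in Rspo1-positive cells. At each passage its Rspo1-positive library was the highest of the 3, but the differences were small: 0.42 ± 0.13 (SE, adjusted p = 0.0474) over untreated and 0.4 ± 0.13 (SE, adjusted p = 0.0285) over Rspo1-negative cells. Of the 16 other ways of fitting, 12 put its adjusted p over untreated cells at 0.05 or more, up to 0.352 without the passage block.

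All 6 genes of the mitotic kinases and the chromosomal passenger complex rose in all 3 comparisons, although some of these calls depended on the fit. Without the passage block, Aurka, Plk1 and Cdca8 lost their calls between the treated groups. Aurka, Plk1 and Incenp lost theirs between Rspo1-negative and untreated cells. Aurkb, the complex's kinase, which corrects wrong attachments, stood at 1.57, 4.72 and 1.497 CPM in untreated cells, 6.65, 10.8 and 11.3 CPM in Rspo1-negative cells and 18.6, 31.7 and 23.8 CPM in Rspo1-positive cells. The 3 groups formed separate steps: the log2 fold change was 2.0 ± 0.27 (SE, adjusted p = 0.000403) from untreated to Rspo1-negative cells and 1.35 ± 0.24 (SE, adjusted p = 0.00196) from there to Rspo1-positive cells. Incenp, the scaffold of the complex, had the smallest change over untreated cells, with 19.4, 25.3 and 20.9 CPM in untreated cells, 23.7, 32.9 and 26.9 CPM in Rspo1-negative cells and 50.4, 74.95 and 50.01 CPM in Rspo1-positive cells. Its Rspo1-positive libraries lay above the rest (1.4 ± 0.12, SE, adjusted p = 1.64e-05), and its step from untreated to Rspo1-negative cells was 0.34 ± 0.11 (SE, adjusted p = 0.0366), a call lost in 10 of 16 other fits, with 0.13 and an adjusted p of 0.407 under an offset for GC content and length. Birc5 (survivin) and Cdca8 (borealin), the other subunits, rose by 3.18 and 2.33 over untreated cells on the log2 scale. Plk1, which drives mitotic entry and centrosome maturation, rose by 2.85 ± 0.25 and Aurka, the spindle pole kinase, by 2.38 ± 0.28. Aurka's difference between Rspo1-positive and Rspo1-negative cells, 0.75 ± 0.26 (SE, adjusted p = 0.041), lost its call in 8 of 16 other fits.

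The outer kinetochore, which holds the microtubules, had the largest median change of the roles with more than 2 genes: 3.22 over untreated and 2.37 over Rspo1-negative cells on the log2 scale. All 7 genes rose in both comparisons, while 3 rose from untreated to Rspo1-negative cells. Cenpf, a large microtubule-binding protein of the corona, stood at 3.02, 10.2 and 5.96 CPM in untreated cells, 3.41, 12.4 and 5.25 CPM in Rspo1-negative cells and 34.9, 83.6 and 61.9 CPM in Rspo1-positive cells. Every Rspo1-positive library was above all others, and the untreated and Rspo1-negative libraries interleaved by passage. Its log2 fold changes were 3.31 ± 0.17 (SE, adjusted p = 3.6e-06) over untreated cells, 3.21 ± 0.17 (SE, adjusted p = 8.37e-06) over Rspo1-negative cells and 0.1 ± 0.17 (SE, adjusted p = 0.662) between these. Cenpe, the kinesin that moves chromosomes to the spindle equator, showed the same with 3.22, 3.22 and 0.01 ± 0.17.

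The Ndc80 complex, the main microtubule coupler, has 4 subunits. Spc24 stood at 1.08, 1.81 and 1.81 CPM in untreated cells, 4.897, 7.12 and 7.75 CPM in Rspo1-negative cells and 11.5, 15.99 and 11.98 CPM in Rspo1-positive cells. Its groups did not overlap, and its step from untreated to Rspo1-negative cells was 2.07 ± 0.2 (SE, adjusted p = 0.000137), beside a further 1.01 ± 0.18 (SE, adjusted p = 0.00163) to Rspo1-positive cells. Spc25, which pairs with Spc24, stood at 1.45, 2.78 and 1.21 CPM in untreated cells, 2.34, 3.33 and 2.79 CPM in Rspo1-negative cells and 8.81, 14.9 and 9.04 CPM in Rspo1-positive cells. Untreated and Rspo1-negative libraries of Spc25 overlapped (0.7 ± 0.21, SE, adjusted p = 0.0258), and the rise over untreated cells was 2.62 ± 0.21 (SE, adjusted p = 1.42e-05). Nuf2 stood at 0.462, 2.78 and 0.892 CPM in untreated cells, 2.29, 3.09 and 3.94 CPM in Rspo1-negative cells and 7.07, 11.8 and 10.3 CPM in Rspo1-positive cells, with 1.36 ± 0.37 (SE, adjusted p = 0.0158) between untreated and Rspo1-negative cells. Ndc80 itself was at 0.87 ± 0.34 in that comparison, with an adjusted p of 0.069, and Knl1, the scaffold on which the checkpoint assembles, at 0.51 ± 0.38. Both rose over untreated cells, by 3.23 and 3.25. From untreated to Rspo1-negative cells the calls of Spc25 and Nuf2 were lost in 8 and 7 of 16 other fits. With the offset for GC content and length, Spc24, Nuf2, Ndc80 and Spc25 all rose in that comparison, by 1.8, 1.9, 1.34 and 1.03. The difference between subunits within a complex was not tested.

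At the inner centromere, all 8 genes rose over untreated cells, 7 over Rspo1-negative cells and 5 from untreated to Rspo1-negative cells. Cenpa, the histone H3 variant that marks the centromere, stood at 2.28, 8.76 and 3.83 CPM in untreated cells, 7.505, 18.8 and 16.7 CPM in Rspo1-negative cells and 16.8, 52.1 and 30.7 CPM in Rspo1-positive cells. The passage 6 library was highest within every group, and within a passage the order of the 3 groups was always the same. Cenpa rose by 2.79 ± 0.19 (SE, adjusted p = 5.82e-06) over untreated cells. Cenpm, a subunit of the constitutive network on CENP-A chromatin, stood at 3.57, 6.29 and 2.56 CPM in untreated cells, 8.996, 9.34 and 13.2 CPM in Rspo1-negative cells and 13.1, 15.5 and 14.9 CPM in Rspo1-positive cells. Its difference between the treated groups was 0.46 ± 0.25 (SE, adjusted p = 0.174), beside a step from untreated to Rspo1-negative cells of 1.39 ± 0.27 (SE, adjusted p = 0.00301). With an offset for GC content and length these were 0.83 (adjusted p = 0.0346) and 1.04 (adjusted p = 0.0174), so the first passed the test there. 

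Cenpl, Cenpk and Cenpp are further subunits of that network. Cenpl stood at 3.42, 4.11 and 2.85 CPM in untreated cells, 3.67, 4.03 and 4.74 CPM in Rspo1-negative cells and 5.56, 7.72 and 5.85 CPM in Rspo1-positive cells, and its Rspo1-positive libraries exceeded all others by a narrow margin (0.88 ± 0.2, SE, adjusted p = 0.0135 over untreated cells). Cenpk stood at 1.39, 1.44 and 1.09 CPM in untreated cells, 2.02, 1.36 and 1.23 CPM in Rspo1-negative cells and 4.33, 3.91 and 3.33 CPM in Rspo1-positive cells, with Rspo1-positive libraries above the rest and 0.23 ± 0.24 (SE, adjusted p = 0.484) between the other groups. Cenpp, the weakest gene of all by CPM, stood at 0.8001, 1.304 and 0.806 CPM in untreated cells, 1.65, 1.15 and 1.99 CPM in Rspo1-negative cells and 2.07, 3.44 and 3.27 CPM in Rspo1-positive cells. Its Rspo1-positive and Rspo1-negative libraries lay next to each other (0.83 ± 0.3, SE, adjusted p = 0.0492), a call lost in 14 of 16 other fits. Cenph, Cenpi and Cenpn rose by 2.22, 2.55 and 2.46 on the log2 scale over untreated cells.

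The 8 condensin genes fell into separate patterns. Over untreated cells 7 rose and over Rspo1-negative cells 7 rose and 1 fell, but from untreated to Rspo1-negative cells 3 rose, 1 fell and 4 did not pass. Smc2 and Smc4 form the ATPase core shared by condensin I and II. Smc4 (chr3:69004738-69034623) stood at 24.6, 27.4 and 21.4 CPM in untreated cells, 11.7, 12.3 and 5.46 CPM in Rspo1-negative cells and 47.3, 58.05 and 51.04 CPM in Rspo1-positive cells. Its Rspo1-negative libraries were the lowest of the 3 groups at every passage, with no overlap on either side: -1.35 ± 0.2 (SE, adjusted p = 0.000648) against untreated cells, and 2.45 ± 0.2 (SE, adjusted p = 9.19e-05) for Rspo1-positive over Rspo1-negative cells. Smc2 was likewise at -0.34 ± 0.22 between Rspo1-negative and untreated cells (adjusted p = 0.238), and rose by 2.58 in Rspo1-positive over Rspo1-negative cells.

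The non-SMC subunits of condensin I, which reaches chromosomes once the nuclear envelope has opened, are Ncapd2, Ncapg and Ncaph. Ncapd2 stood at 12.4, 24.1 and 15.2 CPM in untreated cells, 27.2, 51.6 and 43.7 CPM in Rspo1-negative cells and 53.8, 106 and 68.2 CPM in Rspo1-positive cells, and Ncaph, the kleisin that closes the ring, at 8.62, 9.33 and 6.74 CPM in untreated cells, 18.1, 21.1 and 20.4 CPM in Rspo1-negative cells and 37.9, 49.3 and 36.1 CPM in Rspo1-positive cells. Both rose from untreated to Rspo1-negative cells (1.26 ± 0.12 and 1.28 ± 0.14) and again to Rspo1-positive cells (0.88 ± 0.12 and 1.03 ± 0.14). For Ncapg the values were 0.21 ± 0.28 and then 2.32 ± 0.27.

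In condensin II, which is nuclear throughout the cycle, Ncapg2 had the largest change over untreated cells of the 8 genes, with 4.86, 5.35 and 4.26 CPM in untreated cells, 5.88, 6.25 and 3.64 CPM in Rspo1-negative cells and 28.1, 29.3 and 29.02 CPM in Rspo1-positive cells. Its untreated and Rspo1-negative libraries overlapped, and Rspo1-positive libraries were several times higher (2.59 ± 0.18, SE, adjusted p = 5.82e-06 over untreated cells). Ncapd3 changed by 1.09 ± 0.15 over untreated cells and 0.05 ± 0.15 between Rspo1-negative and untreated cells. Ncaph2 (chr15:89355719-89372826), the kleisin of condensin II, was the most abundant gene of the 52 and stood at 192, 198 and 193 CPM in untreated cells, 337, 274 and 370.5 CPM in Rspo1-negative cells and 205, 209.5 and 248 CPM in Rspo1-positive cells. Here the Rspo1-negative libraries were the highest at each passage, 0.74 ± 0.13 (SE, adjusted p = 0.00187) over untreated cells, and Rspo1-positive cells lay below them (-0.57 ± 0.13, SE, adjusted p = 0.00697) and near untreated cells (0.18 ± 0.13, SE, adjusted p = 0.455). Exons of the antisense genes Sco2 and Tymp cover 19.7% of the exon bases of Ncaph2, and the strand setting of the counting is not given in the sources used here, so reads of these genes cannot be told apart from its own there.

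Among the genes of the anaphase trigger, Cdc20, Ube2c and Espl1 rose in all 3 comparisons. Without the passage block, Cdc20 and Ube2c lost their calls between the treated groups, and Ube2c also lost its call between Rspo1-negative and untreated cells. Cdc20, the activator of the anaphase-promoting complex, stood at 4.25, 15.6 and 7.43 CPM in untreated cells, 17.3, 34.97 and 36.6 CPM in Rspo1-negative cells and 36.7, 103 and 61.7 CPM in Rspo1-positive cells. Rspo1-positive libraries were highest at each passage, although the passage 5 library of that group, at 36.7 CPM, was close to Rspo1-negative cells of passages 6 and 10. Its log2 fold change was 2.94 ± 0.2 (SE, adjusted p = 5.82e-06) over untreated and 1.11 ± 0.18 (SE, adjusted p = 0.00118) over Rspo1-negative cells. Espl1 (separase), the protease that cuts cohesin, stood at 1.32, 4.92 and 2.36 CPM in untreated cells, 6.41, 14.2 and 11.9 CPM in Rspo1-negative cells and 21.6, 51.1 and 27.1 CPM in Rspo1-positive cells. The 3 groups did not overlap, with 2.01 ± 0.2 (SE, adjusted p = 0.000143) in the first step and 1.59 ± 0.18 (SE, adjusted p = 0.000267) in the second. Ube2c, the E2 enzyme of the complex, rose by 3.19 ± 0.24 over untreated cells, and 22.8% of its exon bases lie opposite exons of the muscle gene Tnnc2.

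Pttg1 (chr11:43420250-43426251), which encodes securin, the inhibitor of separase, ran against the other genes of the anaphase trigger. Like Bub3 and Ncaph2, it was highest in Rspo1-negative cells and was not called between Rspo1-positive and untreated cells. It stood at 10.7, 10.9 and 10.2 CPM in untreated cells, 17.4, 12.8 and 17.7 CPM in Rspo1-negative cells and 10.1, 9.51 and 9.85 CPM in Rspo1-positive cells. The Rspo1-positive libraries were the 3 lowest of all 9, by a small margin below untreated cells, and the Rspo1-negative libraries were the 3 highest. Against untreated cells the difference was -0.12 ± 0.15 (SE, adjusted p = 0.699), and against Rspo1-negative cells Pttg1 fell by 0.69 ± 0.15 (SE, adjusted p = 0.00508) on the log2 scale. From untreated to Rspo1-negative cells it rose by 0.58 ± 0.15 (SE, adjusted p = 0.0135), a call lost in 6 of 16 other fits. Securin and its target Espl1 were thus at -0.12 and 3.61 in the same contrast.

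The 3 spindle assembly genes rose over both other groups. Tpx2, which activates Aurora A and seeds microtubules, stood at 3.02, 11.3 and 4.98 CPM in untreated cells, 10.3, 22.9 and 17.9 CPM in Rspo1-negative cells and 34.4, 75.1 and 45.8 CPM in Rspo1-positive cells. Each group was above the one before at every passage (3.11 ± 0.18, SE, adjusted p = 3.6e-06 over untreated cells). Aspm, a spindle pole protein, stood at 1.51, 4.58 and 2.19 CPM in untreated cells, 1.52, 7.24 and 2.202 CPM in Rspo1-negative cells and 16.1, 37.5 and 22 CPM in Rspo1-positive cells. Untreated and Rspo1-negative cells had nearly the same values at passages 5 and 10, and the rise lay in Rspo1-positive cells: 2.99 ± 0.21 (SE, adjusted p = 4.78e-05) over Rspo1-negative cells against 0.29 ± 0.22 (SE, adjusted p = 0.339) between the other groups. Nusap1, which links microtubules to chromatin, stood at 4.001, 8.06 and 2.27 CPM in untreated cells, 6.39, 9.999 and 9.06 CPM in Rspo1-negative cells and 21.3, 38.1 and 26.8 CPM in Rspo1-positive cells. Its smallest Rspo1-positive value was above the largest of the other 6 libraries (2.66 ± 0.27, SE, adjusted p = 5.8e-05 over untreated cells).

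All 6 cytokinesis genes rose over untreated and over Rspo1-negative cells, although Iqgap3 lost its call over Rspo1-negative cells without the passage block. Iqgap3, a scaffold of the cortex, had the largest change of the 52 over untreated cells and stood at 1.23, 6.42 and 2.85 CPM in untreated cells, 9.58, 20.2 and 25.6 CPM in Rspo1-negative cells and 31.6, 56.4 and 44.8 CPM in Rspo1-positive cells. It also had the largest rise from untreated to Rspo1-negative cells, 2.5 ± 0.29 (SE, adjusted p = 0.000236), and reached 3.83 ± 0.3 (SE, adjusted p = 1.28e-05) in Rspo1-positive cells. Racgap1, part of the centralspindlin complex that bundles the midzone, stood at 6.19, 17.02 and 10.5 CPM in untreated cells, 17.9, 34.8 and 38.5 CPM in Rspo1-negative cells and 46.5, 101 and 75.5 CPM in Rspo1-positive cells. Its groups were ordered alike at each passage, with 2.77 ± 0.16 (SE, adjusted p = 3.6e-06) over untreated cells. Prc1, which crosslinks midzone microtubules, Anln (anillin) and Ect2, the activator of RhoA at the cleavage furrow, rose by 2.89, 2.57 and 2.45 over untreated cells.

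Gas2l3 (chr10:89408823-89443967), which binds actin and microtubules at the midbody, was the other gene besides Smc4 that fell in Rspo1-negative cells. It stood at 8.06, 7.32 and 8.84 CPM in untreated cells, 3.81, 3.74 and 4.02 CPM in Rspo1-negative cells and 12.7, 18.1 and 15.98 CPM in Rspo1-positive cells. The Rspo1-negative libraries were the 3 lowest, by -1.06 ± 0.17 (SE, adjusted p = 0.00111) against untreated cells, and the Rspo1-positive libraries the 3 highest (0.94 ± 0.16, SE, adjusted p = 0.00296 over untreated and 2.004 ± 0.17 (SE, adjusted p = 9.19e-05) over Rspo1-negative cells).

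**Figure D3:**
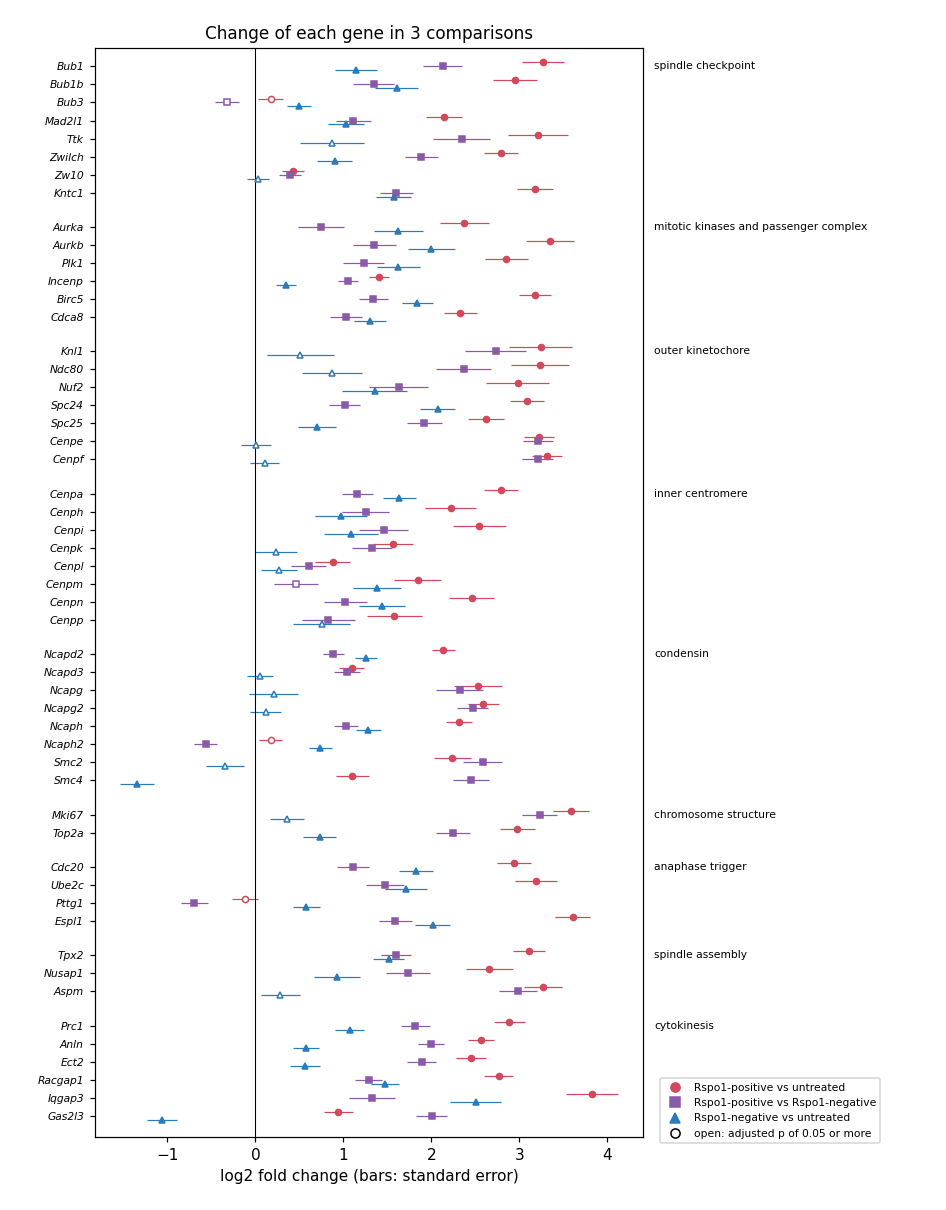
Log2 fold change of each gene in the 3 comparisons, grouped by role, with bars for the standard error; filled symbols have an adjusted p under 0.05. Rspo1-positive over untreated cells (red circles) lies right of 0 for 51 genes, while Rspo1-negative over untreated cells (blue triangles) runs from -1.35 for Smc4 to 2.5 for Iqgap3.

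The medians by role were read for each step. From untreated to Rspo1-negative cells the median log2 fold change was 1.77 for the anaphase trigger and 1.62 for the kinases and passenger complex, but 0.70 for the outer kinetochore and 0.16 for condensin. From Rspo1-negative to Rspo1-positive cells it was 2.37 for the outer kinetochore, 1.68 for condensin, 1.29 for the anaphase trigger and 1.14 for the kinases. These medians are a description, since no test of one role against another was made. With the GC and length offset the medians of the latter step were 1.57 for the outer kinetochore, 1.22 for condensin, 1.46 for the anaphase trigger and 1.2 for the kinases, so condensin no longer stood above the anaphase trigger.

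GC content and length moved with both of these steps. Over 17001 genes, Spearman's rho of the log2 fold change with the GC content of the longest transcript was 0.499 for Rspo1-negative against untreated cells, -0.506 between the treated groups (Rspo1-positive against Rspo1-negative) and -0.0131 between Rspo1-positive and untreated cells, given as a description because genes share the same libraries. Over the 52 genes it was 0.606, -0.516 and 0.107. The genes that led the first of these steps are GC-rich (Iqgap3 55.6%, Espl1 56.1%), and the 2 that fell are GC-poor (Smc4 40.2%, Gas2l3 41.7%). The median GC content was 45.6% over the 52 genes and 49.9% over all genes tested.

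With a GC and length offset per library in the same blocked fit, 48 genes rose and 0 fell over untreated cells (median log2 fold change 2.58), where 6.56% of all genes rose and 9.66% fell. Over Rspo1-negative cells 45 rose and 2 fell (median 1.25), beside 9.57% and 13.8% of all genes. From untreated to Rspo1-negative cells 46 rose and 1 fell (median 1.25), beside 10.2% and 10.5% of all genes, and 34 of the 35 genes that rose without the offset were among the 46. Outer kinetochore genes then rose in 7 of 7 cases with a median of 1.34, beside 1.44 for the anaphase trigger and 1.38 for the kinases. Condensin had a median of 0.52, with 5 of 8 genes higher and 1 lower. Cenpe was at 0.78 (adjusted p = 0.00957) and Mki67 at 1.0 (adjusted p = 0.000723). Smc4 stayed lower at -0.68 (adjusted p = 0.0106), Gas2l3 was at -0.25 (adjusted p = 0.387) and Smc2 at 0.48 (adjusted p = 0.118), the last with the opposite sign. In Rspo1-positive over Rspo1-negative cells Mad2l1 moved from 1.11 to 0.05 (adjusted p = 0.891). Its offset was set by its longest transcript of 7557 bases, which may not be the one expressed, so this value is uncertain. Cenpl moved to -0.16 (adjusted p = 0.643), Cenpp to 0.33 (adjusted p = 0.446), Zw10 to 0.31 (adjusted p = 0.0741) and Ncaph2 to -0.36 (adjusted p = 0.079), and Bub3 fell by 0.55 (adjusted p = 0.0219) on the log2 scale. Pttg1 was at -0.83 (adjusted p = 0.00393).

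**Figure D4:**
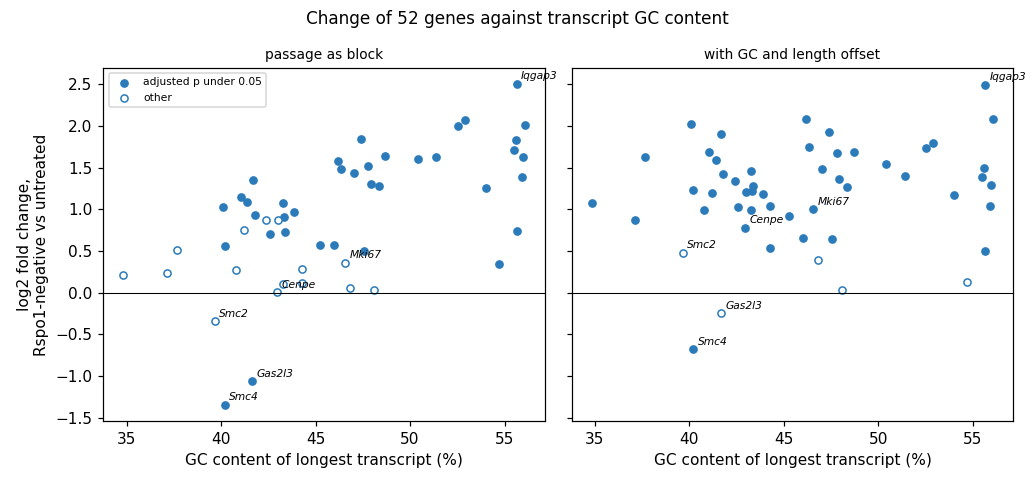
Log2 fold change of the 52 genes in Rspo1-negative over untreated cells against the GC content (%) of the longest transcript, with passage as block (left) and with the GC and length offset added (right); filled points have an adjusted p under 0.05. Filled points above 0 number 35 on the left and 46 on the right, and Smc4 is the one filled point below 0 on the right.

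Levels also differed between passages. At passage 6 against passage 5, 21 of the 52 genes were higher and 0 lower, where 1.16% of all genes were higher and 1.33% lower, with a median log2 difference of 0.83. The median over all genes was 0.002. In 39 of the 52 the passage 6 library was above the passage 5 library in all 3 groups. The share of all genes for which this holds was not computed, so the 39 cannot be set against it. The largest difference was that of Aspm, 1.66 ± 0.21 (SE, adjusted p = 0.00283), then Cenpa, 1.64 ± 0.18 (SE, adjusted p = 0.00201), Cenpf, 1.61 ± 0.17 (SE, adjusted p = 0.00195), and Ube2c, 1.52 ± 0.23 (SE, adjusted p = 0.00709). Passage 10 against passage 5 gave 9 higher genes (4.57% of all genes), led by Iqgap3 with 0.98 ± 0.27 and Cenpa with 0.94 ± 0.18, and 1 lower gene (4.50% of all genes), Zw10 at -0.46 ± 0.13. At each passage, untreated cells came from organoids without Rspo1 and the other groups from organoids with it. Passage cannot be told apart from the day or run of those cultures. Leaving out single libraries took the 21 to between 11 (without the passage 5 library of untreated or of Rspo1-negative cells) and 23 and the 10 genes called at passage 10 to between 0 and 4. In those fits 0.252 to 2.53% of all genes were higher at passage 6 and 0.905 to 1.9% at passage 10.

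**Figure D5:**
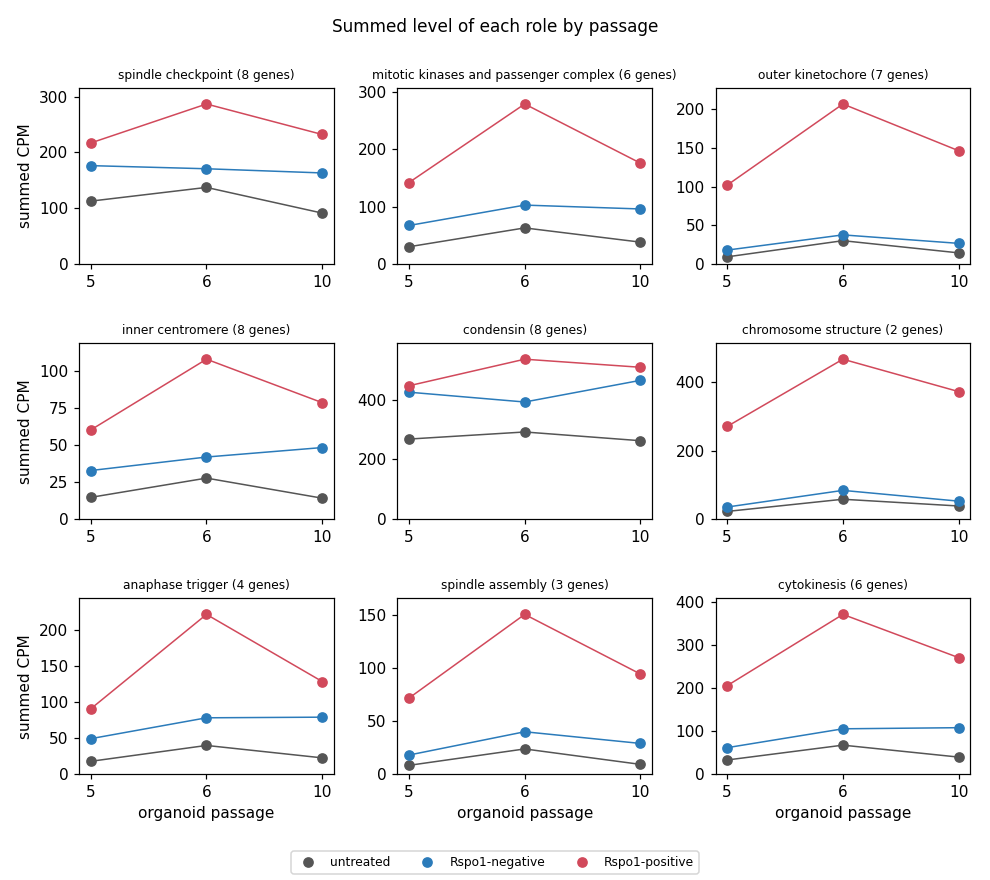
Summed CPM of the genes of each role by organoid passage, with lines joining the libraries of a group; each axis starts at 0. The Rspo1-positive line is the highest in all 9 panels, and passage 6 is its highest point in each.

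Lists of other genes of the same machinery were read in the same fit. Of all genes, 6.44% rose and 6.77% fell in Rspo1-positive over untreated cells, and 21.5% rose and 17.4% fell over Rspo1-negative cells. Of 24 other kinetochore genes, 16 rose over untreated cells and 0 fell (median log2 fold change 0.94), and 13 rose and 3 fell over Rspo1-negative cells. Nsl1, a subunit of the Mis12 complex, was at 1.07 ± 0.536, 3.07 ± 0.7204 and 7.49 ± 1.24 CPM (mean ± SD, n = 3) in untreated, Rspo1-negative and Rspo1-positive cells and rose by 2.88 ± 0.24 over untreated cells. Ska1, which tracks microtubule ends, rose by 2.77 ± 0.37.

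Of 15 genes of cohesin and its regulators, 4 rose over untreated cells: Esco2, Sgo2a, Sgo1 and Cdca5, which acetylate or protect cohesin during division, by 3.28 ± 0.31, 3.0 ± 0.25, 2.81 ± 0.24 and 2.32 ± 0.21. Over Rspo1-negative cells 14 rose (median 1.28), where 21.5% of all genes rose. From untreated to Rspo1-negative cells 2 rose and 9 fell, beside 15.5% and 20% of all genes. With the GC and length offset 11 rose in the former comparison (median 0.43), where 9.57% of all genes rose. In the latter 4 rose and 4 fell, beside 10.2% and 10.5% of all genes. The 17 genes of the anaphase-promoting complex and its partners, most of them present throughout the cycle, had 5 higher and 0 lower over untreated cells, with a median of 0.05. Of all genes, 6.44% were higher and 6.77% lower there. Over Rspo1-negative cells 3 of the 17 were higher and 4 lower, near the shares of all genes (21.5% and 17.4%). From untreated to Rspo1-negative cells 6 were higher and 2 lower, beside 15.5% and 20% of all genes. Fbxo5 (Emi1), the inhibitor of the complex made in S and G2 phase, had the largest change over untreated cells, 1.89 ± 0.2.

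Among 14 regulators of mitotic gene transcription, 5 rose over untreated cells, 6 over Rspo1-negative cells, and 4 rose and 2 fell from untreated to Rspo1-negative cells. Of all genes, 6.44% and 21.5% rose in the first 2 of these comparisons, and 15.5% rose and 20% fell in the last. Foxm1, the factor that joins MuvB at late cell cycle promoters, stood at 5.47 ± 1.81, 12.7 ± 4.07 and 36.5 ± 13.3 CPM (mean ± SD, n = 3) in untreated, Rspo1-negative and Rspo1-positive cells. It rose in each step, 1.21 ± 0.16 (SE, adjusted p = 0.000368) and 1.53 ± 0.15 (SE, adjusted p = 0.000188). Mybl2 (B-Myb), its partner, stood at 1.56 ± 0.751, 4.49 ± 0.295 and 8.96 ± 0.7599 CPM (mean ± SD, n = 3) and rose by 2.57 ± 0.28 (SE, adjusted p = 0.000112) over untreated cells. Rbl1 (p107), of the repressive DREAM complex, rose by 1.67 ± 0.15.

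Genes with a CHR within 50 bases of a start, 26 of the 46 with a promoter, had a median log2 fold change of 2.87 over untreated cells and 25 of them rose. The 20 without had a median of 2.14, and 18 rose. These 20 include Pttg1, whose promoter shown above lies inside the annotated gene. Between Rspo1-negative and untreated cells the medians were 0.97 and 0.84. The ranges overlapped almost fully, from 0.17 to 3.83 and from -0.12 to 3.59 over untreated cells, and no test was made. Mki67 had its CHR matches at -116 and -98, outside that window.

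Immediate early genes moved with the same contrast. Of 12 genes of the response to dissociation, 7 rose and 2 fell in Rspo1-positive over untreated cells, beside 6.44% and 6.77% of all genes. Without the passage block, however, 0 of the 12 rose and 1 fell, where 3.07% of all genes rose. The list's summed level was 1525, 982 and 1020 CPM in untreated cells, 1362, 1048 and 1212 CPM in Rspo1-negative cells and 2305, 1153 and 1524 CPM in Rspo1-positive cells. Fos stood at 109 ± 64.5, 103 ± 60.02 and 358 ± 199 CPM (mean ± SD, n = 3), Fosb rose by 3.61 ± 0.29 and Egr1 by 2.49 ± 0.21. Of the 10 biliary markers, 3 rose over untreated cells, 1 fell and 6 did not pass, with a median log2 fold change of -0.075. Cftr, Sox9 and Spp1 rose by 1.59, 1.34 and 0.73, and Krt19 fell by 1.06 ± 0.16 on the log2 scale. The summed level of the biliary markers was 15840, 15400 and 13030 CPM in untreated cells and 11870, 12050 and 12050 CPM in Rspo1-positive cells. The part of these changes in the result was not tested.

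The level of a gene per length of transcript was read from the authors' deposited FPKM values (fragments relative to transcript length and library size). In Rspo1-positive cells the mean FPKM was highest for Ncaph2, 65.9 ± 6.13 (SD, n = 3), then Cdc20, 36.96 ± 18.7, Top2a, 28.6 ± 6.497, and Mki67, 21.5 ± 6.68. Top2a lay above Mki67 at each passage, with 23.6, 35.9 and 26.2 against 14.5, 27.7 and 22.4 FPKM. Cdc20 lay below Top2a at passage 5 and above it at passages 6 and 10. No difference between these genes was tested. The lowest was Knl1 with 1.27 ± 0.346. In untreated cells Ncaph2 and Bub3 led with 57.95 ± 0.884 and 17.3 ± 2.98 FPKM, and both are among the 3 genes that did not rise.

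In the authors' deposited tables of the same comparisons, 49 of the 52 genes had an adjusted p under 0.05 and a higher level in Rspo1-positive than untreated cells and 0 a lower one. For Rspo1-positive against Rspo1-negative cells the authors' deposited table had 49 higher and 3 lower, and for Rspo1-negative against untreated cells 29 higher and 2 lower. The share of all genes called in the deposited tables was not computed. In the DESeq2 fit made here with passage as a block, 6.79%, 20% and 17.5% of all genes were higher in these 3 comparisons, in the same order.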

How the data were processed

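RNA of sorted organoid cells was read as single-end 75 bp reads from 100 ng of total RNA on a NextSeq-500, per the labels' protocols. The submitters' processing notes name Trimmomatic 0.35, FastQC 0.11.2, STAR 2.5.1b, featureCounts and DESeq2 with build GRCm38; the annotation and the strand setting are not given in the sources used here. The authors deposited raw counts and FPKM values per gene for each library, per the file headers, and for each comparison a table of log2 fold changes and adjusted p-values.

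The 52 genes, their roles and the other lists were chosen with earlier results of these data known. The raw counts went into edgeR 4.0.16 under R 4.3.3. Its filterByExpr, given the groups, with a minimum count of 10 and a minimum total of 15, left 17011 of 32137 genes. Libraries were scaled by TMM, and all 9 libraries entered 1 quasi-likelihood fit of group and passage, with p-values adjusted over the 17011 genes by Benjamini and Hochberg's method and called under 0.05. The standard error is the log2 fold change divided by the square root of F. CPM are counts relative to the TMM-scaled library size. FPKM entered no test. Values in every library are given, within a role, for the gene with the highest mean CPM, those with the largest and smallest change over untreated cells, and those whose call differed from most of the role; of other lists, called genes with a mean CPM above 1, at most 4 a list, the largest changes first.

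Libraries with 1 replicate number share an organoid passage, per the labels. After removal of group means, log2 CPM (prior count 2) correlated at 0.123 to 0.573 in 9 pairs of the same passage and at -0.476 to 0.0826 in 18 pairs of different passages, so passage is the block. Alternatives were no block, a GC and length offset (smooths fitted per library with mgcv 1.9.3 on the longest transcript in GENCODE vM21, GRCm38), median-of-ratios and upper-quartile scaling, no filter, DESeq2 1.42.0, the 6 compared libraries alone, and leaving out each library or passage. Total counts limit the precision of weakly expressed genes. Exon overlaps were read from GENCODE vM21; besides Ncaph2 and Ube2c, exons of other genes cover 13.4% of Ncapg, 12.6% of Cenpp and 11.1% of Prc1.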

Additional observations from a re-analysis of the deposited data

How the results depend on the processing

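Of 832 refitted values of the 52 genes over untreated cells in Rspo1-positive cells (16 alternatives each), 811 kept their direction and call and 21 lost the call, all of Zw10, Cenpl or Cenpp. The corresponding numbers were 767 kept, 57 lost, 7 gained and 1 reversed against Rspo1-negative cells, and 692, 91, 32 and 17 between Rspo1-negative and untreated cells. Genes that rose numbered 46 to 49 over untreated cells and 36 (no replicate block) to 49 over Rspo1-negative cells. Of all genes, 3.06 to 6.79% and 8.07 to 25.9% rose in these fits. Between Rspo1-negative and untreated cells, 19 of the 52 rose with no replicate block and 46 with an offset for GC content and length. The number was 20 to 40 when single libraries or passages were left out, the lowest without passage 5 and the highest without passage 6. The share of all genes that rose moved too. It was 8% with no replicate block, 10.2% with the offset, 3.07% without passage 5 and 22.5% without passage 6. The median over untreated cells ran from 2.49 to 2.96 with libraries or passages left out, the highest without the untreated library of passage 6. With single libraries left out, the genes called for passage 10 against passage 5 ranged from 0 to 4 and the median from 0.083 to 0.457, where 0.905 to 1.9% of all genes were higher. Each library of those passages mattered by more than 1.5 times. For passage 6 against passage 5 the genes called then ranged from 11 to 23, where 0.252 to 2.53% of all genes were higher. The called genes of the 52 numbered 11 without the passage 5 library of untreated or Rspo1-negative cells and 13 without the Rspo1-positive library of passage 6. With DESeq2 or without the filter on low counts, 12 genes were higher and 1 lower at passage 10 than at passage 5. Of all genes, 5.67% and 4.36% were higher in these 2 fits. Median-of-ratios scaling gave 6 higher and 1 lower in that comparison, where 4.15% of all genes were higher. At passage 6 against passage 5, 30 were higher with DESeq2 or without the filter, and 24 with the GC and length offset.

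Reversed values were Cenpl against Rspo1-negative cells with the offset (-0.16) and, between Rspo1-negative and untreated cells, Smc2 with the offset (0.48) and Cenpe with no replicate block (-0.035). With libraries or passages left out in that comparison, the values ran for Zw10 from -0.038 to 0.150, Cenpe from -0.098 to 0.183, Cenpf from -0.062 to 0.272, Ncapd3 from -0.107 to 0.207, Ncapg from -0.074 to 0.743, and Aspm from -0.033 to 0.435, none of them called in the blocked fit. The cause of these changes was not tested.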
